A study of Homo sapiens with 16 samples.

Results

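The metallothionein genes were followed across RNA-Seq libraries from a pair of melanoma cell lines treated with corin or with vehicle. The set was defined by gene symbol and comprised 8 genes (*MT1A*, *MT1E*, *MT1F*, *MT1G*, *MT1H*, *MT1M*, *MT1X* and *MT2A*). Of these, 5 had counts among the 34228 genes of the count table (*MT1E*, *MT1F*, *MT1G*, *MT1X* and *MT2A*), and *MT1A*, *MT1H* and *MT1M* were not analysed here. Metallothioneins are small, cysteine-rich proteins that bind zinc and copper and can also bind cadmium. Their genes sit next to each other in a cluster, and their transcription is raised by zinc through the metal-sensing transcription factor MTF1, by glucocorticoids and by oxidative stress. Cells use them to buffer free zinc and to take up reactive metal ions.

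The cells were 451Lu-R and 1205Lu-R, human melanoma lines that had been made resistant to the BRAF inhibitor PLX4032 (vemurafenib) by culture in rising concentrations of the drug and were then kept in it. Each line was treated for 24 h with 2.5 μM corin or with DMSO, giving 4 groups of 2 libraries (451Lu-R DMSO, 451Lu-R corin, 1205Lu-R DMSO and 1205Lu-R corin). Corin is a bifunctional small molecule that inhibits the demethylase and deacetylase activities of the CoREST complex, a corepressor that removes activating marks from histones. The study lists these treatments apart from those with PLX4032. Cells with neither drug were the reference of its clustered heatmap. Its counts of changed genes and its gene set tests instead set the 2 drugs together against PLX4032 alone. The comparison of corin with DMSO made here is thus a different one. The labels of the 8 libraries write the lines as 451Lu and 1205Lu, and the names of the resistant lines used here follow the study's own description of its RNA-Seq. The sources used here do not say whether the 2 libraries of a group came from separate cultures, so the p-values measure the spread between these libraries, which may be technical. Each line stands for itself, since 1 line of each kind was measured. Of the 16 samples of the study, the 8 from PLX4032 treatments were not analysed here.

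Library totals ranged from 9516687 to 11797788 estimated counts, and replicate libraries of a group differed by little more than sampling noise (chi-square per degree of freedom 1.34 to 1.40). The lines differed in their melanocytic markers: all 8 (*MITF*, *SOX10*, *PMEL*, *MLANA*, *TYR*, *TYRP1*, *DCT* and *S100B*) reached 1 CPM (the usual counts-per-million scale) in 451Lu-R libraries, where their summed level was 11702 to 13727 CPM. In 1205Lu-R the summed level was 8.29 to 26.5 CPM, and *SOX10* and *TYR* were at 0 in all 4 libraries. Markers of other cell types were low or came from few genes. *PTPRC*, *EPCAM* and *CDH5* stayed under 1 CPM in every library, whereas *CD68*, *KRT18* and *VWF* were above 1 CPM in all 8 and *PECAM1* was at 6.06 to 9.81 CPM in 1205Lu-R and at 0 in 451Lu-R. The leukocyte list, of which 3 of 4 markers had counts, summed to 64.9 to 67.2 CPM in 451Lu-R DMSO, 88.2 to 89.4 in 451Lu-R corin, 9.85 to 10.3 in 1205Lu-R DMSO and 12.8 to 14.2 in 1205Lu-R corin, nearly all from *CD68*. The 5 epithelial markers summed to 21.6 to 24.8, 65.9 to 68.3, 101 to 106 and 150 to 162 CPM in the same order, mostly from *KRT18*. The 4 endothelial markers summed to 1.35 to 1.47, 8.39 to 9.20, 10.7 to 10.8 and 24.5 to 28.2 CPM in the same order, and their part in the results was not tested.

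The 8 genes lie within 75613 bases of chromosome 16 (chr16:56608584-56684196, hg38, GENCODE release 44). *MT2A* (ENSG00000125148, chr16:56608584-56609497, plus strand) comes first of the 8. Among the measured genes it is followed by *MT1E* (ENSG00000169715, chr16:56625475-56627112, plus strand) and *MT1F* (ENSG00000198417, chr16:56657731-56660698, plus strand). *MT1G* (ENSG00000125144, chr16:56666730-56668065) lies on the minus strand, and *MT1X* (ENSG00000187193, chr16:56682470-56684196, plus strand) comes last of the 8 and overlaps an unnamed gene on its own strand. Their reference transcripts are short, from 401 bases for *MT2A* to 746 bases for *MT1E*. That of *MT1E* has 2 exons, whereas those of the other measured genes have 3. Values that rest on its reference transcript are thus not fully like those of the others. The *MT1E* exon printed below comes from a transcript with 3 coding exons. The second coding exon of each measured gene shows how alike they are. It is printed here because reads from such stretches decide how counts are split among the genes, and capitals mark bases that differ from *MT2A*.
MT2A exon 2, chr16:56608992-56609057, + strand: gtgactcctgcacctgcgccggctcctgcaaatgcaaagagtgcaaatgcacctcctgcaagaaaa
MT1X exon 2, chr16:56683165-56683230, + strand: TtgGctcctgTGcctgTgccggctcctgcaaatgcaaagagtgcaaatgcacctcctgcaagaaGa
MT1E exon 2, chr16:56626466-56626531, + strand: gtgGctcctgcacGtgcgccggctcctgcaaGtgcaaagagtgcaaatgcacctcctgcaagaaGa
MT1F exon 2, chr16:56658675-56658740, + strand: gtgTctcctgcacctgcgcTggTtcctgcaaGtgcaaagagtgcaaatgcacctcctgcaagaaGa
MT1G exon 2, chr16:56667312-56667377, - strand: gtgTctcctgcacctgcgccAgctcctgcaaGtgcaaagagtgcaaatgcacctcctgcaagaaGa
Over these 66 bases, *MT1E* and *MT1G* differed from *MT2A* at 4 positions, *MT1F* at 5 and *MT1X* at 6. Over the whole coding sequence of 183 bases, identity among the 5 genes ran from 88.5% (*MT1F* and *MT1X*) to 95.1% (*MT1G* and *MT2A*), with 92.3% for *MT1X* and *MT2A*. Of all runs of 31 bases in the reference transcript, the share also found in another gene was 54.0% for *MT1X*, 31.5% for *MT2A*, 31.1% for *MT1G*, 22.6% for *MT1E* and 13.9% for *MT1F*. The estimated counts of *MT1E* and *MT1F* were each 0, and so whole, in the 4 libraries of 1 line. They were also whole (within 0.001) in the libraries of the line where the gene was counted. Those of *MT1X* were whole in 1 and those of *MT2A* in 2 of 8. The counting program can divide a read between copies, and the levels of single genes carry that uncertainty. The sum over the genes does not depend on this division as long as it stays within the set. The summed count was whole (within 0.1) in 6 of 8 libraries and at most 0.38 from whole. Some reads may thus have been divided with genes outside the set, and their number is not known. Among 14 other metallothionein genes and pseudogenes in the annotation, 6 had rows in the table, and none of these 6 exceeded 6 counts in any library. The unnamed gene that overlaps *MT1X* is not among these 14. It shares runs of 31 bases with each of the 5 measured genes, and its counts were not examined here.

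Upstream sequence was given for 3 of the 8 genes (RefSeq, GRCh38.p14), including *MT2A* and *MT1X*, which held most of the counts. The 250 bases before their start are printed with every metal response element core in capitals, that is TGCACNC or TGCGCNC on either strand, the letters that MTF1 is known to bind.
MT2A promoter, chr16:56608334-56608583, + strand: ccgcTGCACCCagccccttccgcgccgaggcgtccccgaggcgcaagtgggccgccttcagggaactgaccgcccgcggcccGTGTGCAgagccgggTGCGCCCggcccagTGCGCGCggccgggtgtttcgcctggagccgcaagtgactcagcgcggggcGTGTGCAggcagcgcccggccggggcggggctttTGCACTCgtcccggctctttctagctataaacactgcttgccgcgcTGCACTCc
MT1X promoter, chr16:56682220-56682469, + strand: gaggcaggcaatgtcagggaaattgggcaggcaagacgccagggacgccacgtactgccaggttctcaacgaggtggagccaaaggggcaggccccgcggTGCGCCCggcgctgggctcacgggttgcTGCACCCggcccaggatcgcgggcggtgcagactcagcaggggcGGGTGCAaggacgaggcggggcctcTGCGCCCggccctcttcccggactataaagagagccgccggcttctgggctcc
The *MT2A* window held 7 such cores and the *MT1X* window held 4. At least 4 cores were found in 0.370% of 35116 human promoter windows of the same length, and at least 1 was found in 24.8% of them. *MT2A* also had 1 AP-1 site (TGANTCA, bases -104 to -98), present in 6.57% of the windows, whereas this motif was not found in the *MT1X* window. Both windows held 2 GC boxes (GGGCGG on either strand), and 24.3% of all windows held at least 2. In *MT1X* the GC box at -82 to -77 shared bases with the core at -78 to -72. These are matches of letters and not measured binding sites.

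*MT2A*, the most abundant of the family, gave 106 and 111 CPM in the 451Lu-R DMSO libraries and 428 and 445 CPM in the 451Lu-R corin libraries. In 1205Lu-R it gave 1015 and 973 CPM with DMSO and 1466 and 1485 CPM with corin. Both 1205Lu-R DMSO libraries stood above both 451Lu-R corin libraries. *MT1X*, another widely expressed member, gave 12.02 and 10.77 CPM in 451Lu-R with DMSO and 133 and 131 CPM with corin. In 1205Lu-R it gave 29.2 and 27.8 CPM with DMSO and 173 and 176 CPM with corin. Here the order of the middle groups was the other way round, with the 451Lu-R corin libraries above the 1205Lu-R DMSO libraries.

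*MT1E* and *MT1F* were each counted in a single cell line. *MT1E* had 0 counts in all 4 libraries of 451Lu-R. In 1205Lu-R it gave 97.2 and 94.6 CPM with DMSO and 148 and 146 CPM with corin. *MT1F* showed the opposite distribution, with 0 counts in all 4 libraries of 1205Lu-R. In 451Lu-R it had 12 and 10 counts (1.10 and 1.03 CPM) with DMSO and 61 and 55 counts (5.17 and 5.50 CPM) with corin. *MT1G* was found only in the 451Lu-R corin libraries, at 2.007 and 1.002 counts, and at this depth neither its presence elsewhere nor a change could be judged.

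**Figure D1:**
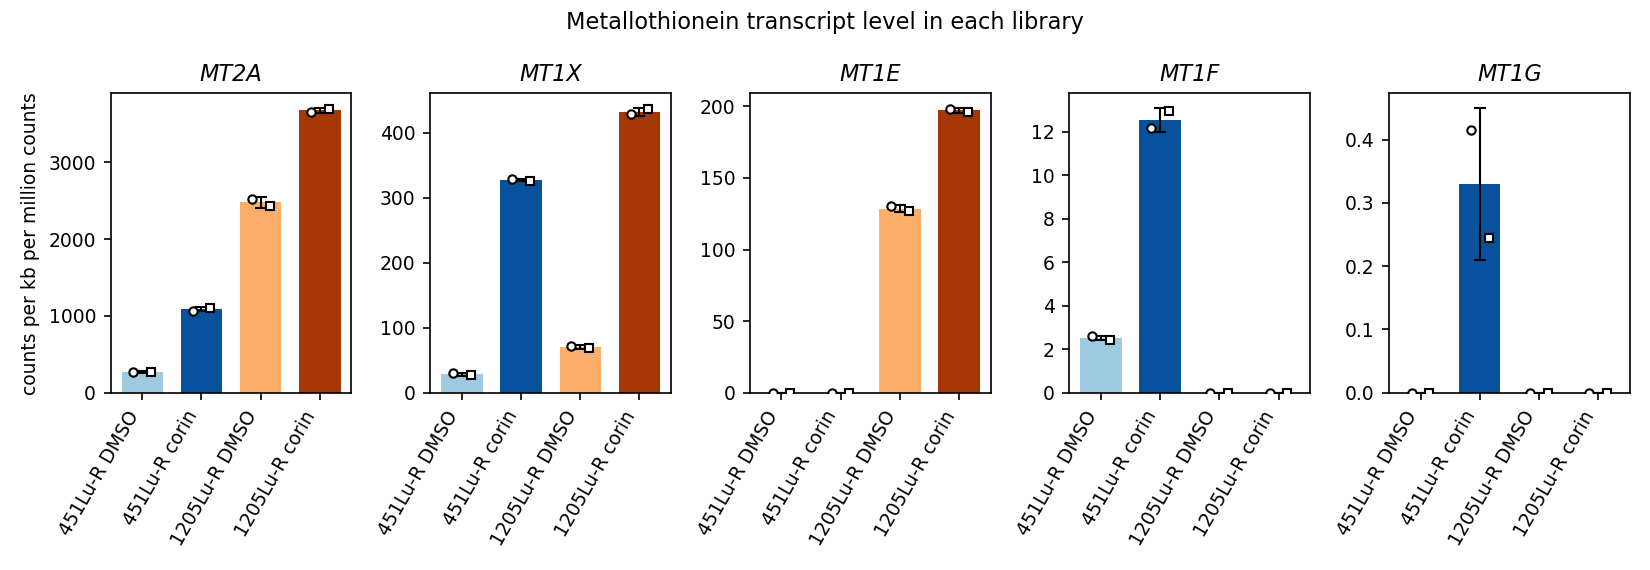
Level of the 5 measured metallothionein genes in CPM per kilobase of reference transcript (vertical axes, which differ between panels), by group. Bars give the mean of 2 libraries, whiskers the SD, and circles and squares the libraries of replicate 1 and 2. *MT2A* and *MT1X* rise with corin in both lines, *MT1E* is at 0 in 451Lu-R and *MT1F* is at 0 in 1205Lu-R.

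To compare genes with each other, CPM were divided by the length of the reference transcript. On this per-kilobase scale *MT2A* led in every group, at 270 ± 8.5 (SD, n = 2) in 451Lu-R DMSO, 1089 ± 29 in 451Lu-R corin, 2479 ± 73 in 1205Lu-R DMSO and 3679 ± 34 in 1205Lu-R corin. Among 18159 protein-coding genes it ranked 219 and 207 in the 451Lu-R DMSO libraries, 72 and 67 with corin, and 6 in all 4 libraries of 1205Lu-R. *MT1X* came next in 451Lu-R, at 28.2 ± 2.2 with DMSO and 327 ± 1.9 with corin, and its rank moved from 2410 and 2657 to 176 and 178. *MT1F* was lower, at 2.51 ± 0.11 and 12.6 ± 0.55. In 1205Lu-R with DMSO, *MT1E* (129 ± 2.5) stood above *MT1X* (70.5 ± 2.5). With corin, *MT1X* (432 ± 6.0) stood above *MT1E* (197 ± 1.8). This second order depended on the length used: with the union of all annotated exons as length, the corin-treated values were 101 ± 1.4 for *MT1X* and 140 ± 1.3 for *MT1E*, and *MT1E* led in both groups. No neighbouring levels in these orders overlapped between libraries.

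In 451Lu-R, corin treatment raised all 3 metallothionein genes that had enough counts to be tested. *MT1X* rose most, by 3.63 ± 0.069 (SE) on the log2 scale (adjusted p = 7.6e-20, edgeR quasi-likelihood test with Benjamini-Hochberg adjustment over all genes), or 11.6-fold in mean CPM. *MT1F* rose by 2.40 ± 0.29 (adjusted p = 2.61e-07) from a DMSO level of 10 to 12 counts per library. *MT2A* rose by 2.11 ± 0.033 (adjusted p = 4.24e-21), or 4.03-fold in mean CPM. All 3 genes also met the stricter rule of an adjusted p under 0.001 with at least 4-fold change. Corin changed most of the transcriptome, and these counts need that background: of 14530 genes tested in 451Lu-R, 41.3% were higher at an adjusted p under 0.05, 38.6% were lower, and 12.4% were higher under the stricter rule. Ordered from the highest fold change down, *MT1X* ranked 1006, *MT1F* 1546 and *MT2A* 1756. The median of the 3 was 2.40, and the median of all genes tested was 0.03. In bulk RNA, more cells with a transcript and more of the transcript per cell cannot be told apart.

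In 1205Lu-R, corin again raised the 3 genes that could be tested, with *MT1E* in the place of *MT1F*. *MT1X* rose by 2.54 ± 0.050 on the log2 scale (adjusted p = 3.82e-21, edgeR), or 6.13-fold in mean CPM. *MT1E* rose by 0.54 ± 0.039 (adjusted p = 2.9e-11), or 1.53-fold. *MT2A* rose by 0.50 ± 0.018 (adjusted p = 2.28e-16), or 1.48-fold. Of 14563 genes tested in this line, 40.4% were higher and 37.8% lower at an adjusted p under 0.05. Under the stricter rule 11.3% were higher, and *MT1X* alone among the 3 met it. *MT1X* ranked 1296 from the top, whereas *MT1E* (4682) and *MT2A* (4892) fell below the upper quartile of all fold changes, which was 0.84. The median of the 3 was 0.54, beside 0.03 for all genes tested.

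**Figure D2:**
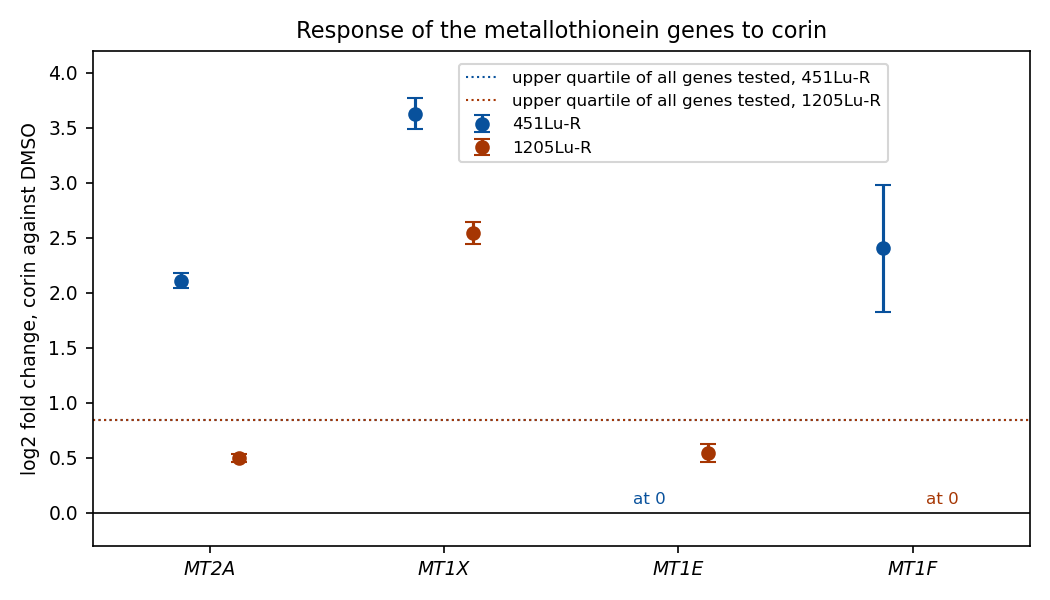
Log2 fold change of each tested metallothionein gene, corin against DMSO, in 451Lu-R (blue) and 1205Lu-R (red); whiskers span 2 SE on each side from the edgeR fit of 2 against 2 libraries. Dotted lines, which nearly coincide, give the upper quartile of all genes tested (0.84 in both lines), and "at 0" marks a gene with no counts in that line.

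The response of *MT2A* and of *MT1X* differed between the lines. In a fit of all 8 libraries, the 1205Lu-R response minus the 451Lu-R response was -1.65 ± 0.048 on the log2 scale for *MT2A* (adjusted p = 4.62e-17, edgeR interaction contrast) and -1.12 ± 0.10 for *MT1X* (adjusted p = 5.31e-09). A negative contrast, which also covers genes that fell more in 1205Lu-R, was called for 27.1% of 16062 genes, and a difference in either direction for 49.7%. The split of these calls depended on the scaling: 45.4% of them were positive with TMM and 64.0% with library totals alone, under which both genes remained negative. For *MT1E* and *MT1F* the contrast could not be interpreted, as 1 of the lines had no counts. On the scale of added transcripts the order differed: *MT2A* gained 328 CPM in 451Lu-R and 481 CPM in 1205Lu-R. These gains are differences of means and were not tested against each other.

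Levels also differed between the lines under vehicle. *MT2A* was 9.17-fold higher in mean CPM in 1205Lu-R than in 451Lu-R with DMSO (log2 difference 3.32 ± 0.042, adjusted p = 9.18e-25, edgeR) and *MT1X* was 2.50-fold higher (1.44 ± 0.093, adjusted p = 4.73e-12). With corin the gap was 3.38-fold for *MT2A* (1.67 ± 0.024, adjusted p = 1.15e-23) and 1.32-fold for *MT1X* (0.32 ± 0.036, adjusted p = 7.64e-08). *MT1E* was at least 309-fold higher in 1205Lu-R with DMSO and at least 490-fold higher with corin, taking 3 counts in a 451Lu-R library as the limit that a count of 0 allows. *MT1F* was at least 3.78-fold higher in 451Lu-R with DMSO and at least 16.9-fold higher with corin, by the same limit. *MT1E* and *MT1F* passed the low-count filter only through the line that had counts, so their direction was set by that filter. The other tested genes, *MT2A* and *MT1X*, were higher in 1205Lu-R under both treatments. The background was again large, with 38.2% of genes higher and 37.2% lower in 1205Lu-R under DMSO, and 38.0% higher and 39.0% lower under corin. The lines differed in their melanocytic markers as given above, and the part of that difference in these results was not tested.

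Summed over the genes, metallothionein transcripts gave 119 and 123 CPM in 451Lu-R with DMSO and 566 and 582 CPM with corin. In 1205Lu-R the sum was 1141 and 1096 CPM with DMSO and 1787 and 1807 CPM with corin. With corin the mean sum was 4.75-fold higher in 451Lu-R (0.0574% against 0.0121% of all counts) and 1.61-fold higher in 1205Lu-R (0.180% against 0.112%). A sum over chosen genes was given no test. The vehicle-treated 1205Lu-R cells already stood 9.25-fold above vehicle-treated 451Lu-R cells, and with corin the gap was 3.13-fold. *MT2A* supplied 72.4% of the increase in CPM in 451Lu-R and 70.9% in 1205Lu-R. *MT1X* supplied 26.6% and 21.5%, *MT1F* 0.942% in 451Lu-R and *MT1E* 7.54% in 1205Lu-R.

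The share of *MT1X* in the family was larger with corin in both lines. This share of the metallothionein counts was 9.43% ± 0.92 (SD, n = 2) in 451Lu-R DMSO and 23.0% ± 0.58 in 451Lu-R corin. In 1205Lu-R it was 2.54% ± 0.016 with DMSO and 9.71% ± 0.055 with corin. The share of *MT2A* was smaller with corin, at 76.0% ± 0.56 against 89.7% ± 0.98 in 451Lu-R and 82.1% ± 0.087 against 88.9% ± 0.064 in 1205Lu-R. *MT1E* held 8.58% ± 0.081 and 8.19% ± 0.14 in 1205Lu-R, and *MT1F* held 0.884% ± 0.057 and 0.929% ± 0.023 in 451Lu-R. The count ratio of *MT1X* to *MT2A* was 0.113 and 0.0972 in the 451Lu-R DMSO libraries and 0.310 and 0.296 in the corin libraries. The DMSO libraries of 1205Lu-R had ratios of 0.0287 and 0.0285, and the corin libraries had 0.118 and 0.119. No share was tested, and the shares of *MT1X* and *MT2A* rest on how shared reads were divided.

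**Figure D3:**
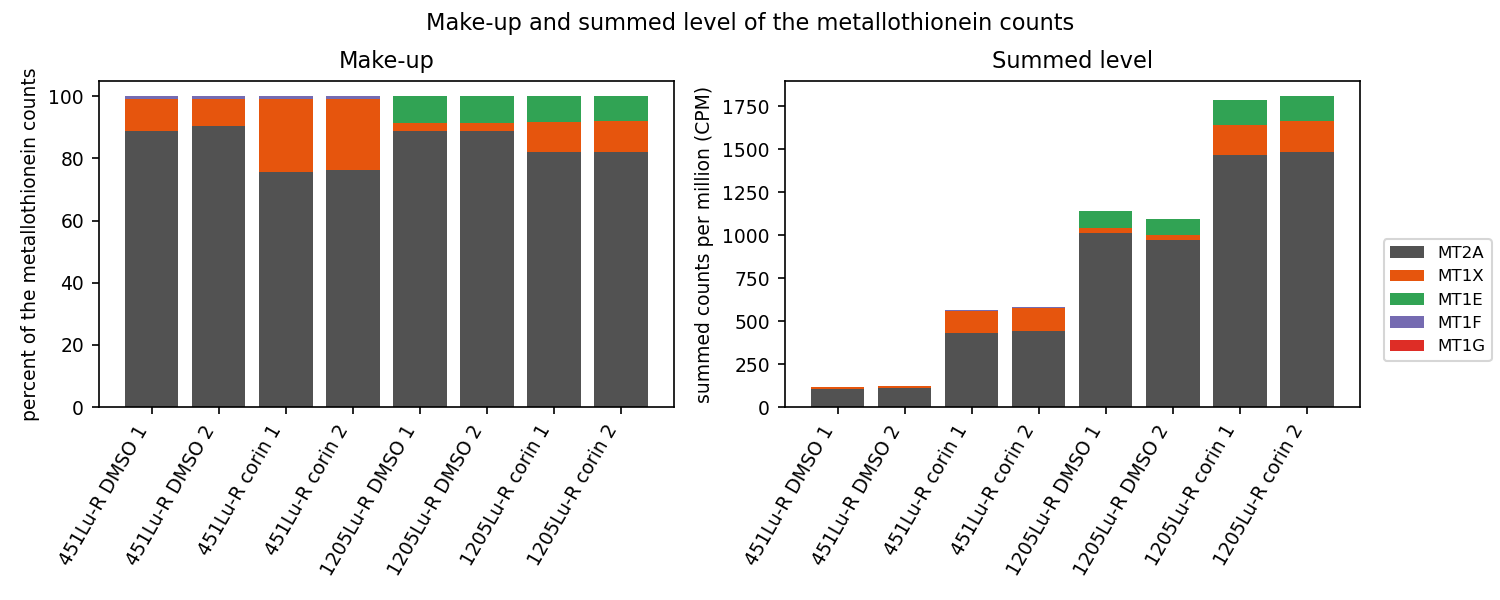
Make-up of the metallothionein counts in percent (left) and their summed level in CPM (right) for each of the 8 libraries, coloured by gene. The *MT1X* share is larger in corin-treated libraries of both lines, and the summed level is highest in the 1205Lu-R corin libraries, at 1787 and 1807 CPM.

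MTF1, the zinc-sensing activator of metallothionein genes, was also measured. Its transcript rose in 451Lu-R from 29.2 ± 0.63 to 54.2 ± 1.4 CPM (an increase of 0.996 ± 0.072 on the log2 scale, edgeR adjusted p = 1.18e-10). The 1205Lu-R level went up from 26.7 ± 1.4 to 43.2 ± 0.66 CPM (0.62 ± 0.075, adjusted p = 1.55e-07). The response was smaller in 1205Lu-R by 0.41 on the log2 scale (interaction -0.41 ± 0.099, adjusted p = 0.00145). Under DMSO the level of *MTF1* in the lines differed by 0.00071 ± 0.077 on the log2 scale, a difference not past the threshold (adjusted p = 1).

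Most zinc transporters of the SLC30 family move zinc out of the cytosol. Of 10 genes, 7 could be tested in each line. The 451Lu-R cells had 3 that rose and 4 that fell (median -0.17), and the 1205Lu-R cells had 3 in each direction (median 0.04). Over all genes tested, 41.3% and 40.4% were higher and 38.6% and 37.8% lower. The family was not tested as a whole, so these counts are not read as setting it apart. *SLC30A1*, the plasma membrane exporter and itself an MTF1 target, rose from 40.4 ± 3.9 to 157 ± 4.2 CPM in 451Lu-R (by 2.06 ± 0.054 on the log2 scale, edgeR adjusted p = 1.31e-17) and from 62.6 ± 5.7 to 118 ± 5.5 CPM in 1205Lu-R (0.83 ± 0.054, adjusted p = 4.1e-12). *SLC30A3*, a vesicular zinc transporter, rose by 2.33 ± 0.15 in 451Lu-R and 3.73 ± 0.22 in 1205Lu-R. *SLC30A4* rose by 1.68 and 0.78, and *SLC30A9* fell by 0.38 and 0.40.

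The SLC39 family brings zinc into the cytosol. Of 14 genes 11 could be tested in each line, and the higher and lower calls numbered 3 and 7 for 451Lu-R, against 4 and 6 for 1205Lu-R (median -0.20 in each). *SLC39A14*, which carries zinc, iron and manganese, rose by 1.64 ± 0.026 in 451Lu-R (adjusted p = 3.73e-21, edgeR), while *SLC39A10*, *SLC39A1* and *SLC39A7* fell by 1.49, 0.73 and 0.62. In 1205Lu-R the largest changes were in *SLC39A13* (-1.05), *SLC39A11* (1.02), *SLC39A8* (0.98) and *SLC39A7* (-0.97). *SLC39A7*, which releases zinc from the endoplasmic reticulum, thus fell in both lines. So did *SLC39A1*, *SLC39A6*, *SLC39A10* and *SLC39A13*. With 451Lu-R given first, their changes were -0.73 and -0.76, -0.10 and -0.22, -1.49 and -0.87, and -0.32 and -1.05. Higher calls were shared by *SLC39A14*, with a 1205Lu-R change of 0.72, and *SLC39A8*, with a 451Lu-R change of 0.41. *SLC39A9* and *SLC39A11* were called in opposite directions. The shares over all genes tested, given above, were 41.3% higher and 38.6% lower for 451Lu-R, and 40.4% and 37.8% for 1205Lu-R. This family was not tested as a whole either, so its counts are not read as setting it apart.

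Copper-handling genes rose more often than they fell. Higher calls numbered 10 and lower calls 1 among 14 genes tested in 451Lu-R (median 0.48), where 41.3% of all genes tested were higher and 38.6% lower. The numbers were 11 and 2 among 15 in 1205Lu-R (median 0.42), beside 40.4% and 37.8% of all genes. The metalloreductase gene *STEAP2* rose by 1.95 ± 0.35 in 451Lu-R and 2.61 ± 0.20 in 1205Lu-R. *ATP7B*, a copper-exporting ATPase, rose by 1.71 ± 0.094 and 2.11 ± 0.11. In 451Lu-R *STEAP3* (2.50) and *SLC31A2* (1.59) were the other large changes, and in 1205Lu-R these were *ATP7A* (1.29), the second copper-exporting ATPase, and *CCS* (1.24), the copper chaperone of superoxide dismutase. All of these passed the edgeR test, with adjusted p-values of 4.33e-05 or lower. The lists are described by counts and medians, and no list was tested as a whole.

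Genes that flank the cluster did not share a direction. Of 16 neighbouring genes 13 could be tested in each line. Among them, 4 were raised and 7 lowered in 451Lu-R (median -0.36), against 5 raised and 7 lowered in the other line (median -0.15). Over all genes tested, 41.3% and 40.4% were raised, 38.6% and 37.8% were lowered, and the median was 0.03 in each line. The list was not tested as a whole, so these counts are not read as setting the neighbours apart. *BBS2*, whose annotated end lies 25.9 kb before the cluster, had a log2 fold change of 0.03 ± 0.086 in 451Lu-R (adjusted p = 0.748, edgeR) and rose by 0.54 ± 0.11 in 1205Lu-R (adjusted p = 0.000157). *NUP93*, 45.9 kb beyond *MT1X*, encodes a nuclear pore protein and fell by 0.81 ± 0.049 and 0.15 ± 0.048. The large changes lay farther out: *NLRC5*, a transactivator of MHC class I genes 305 kb from the cluster, rose by 3.47 ± 0.18 and 1.71 ± 0.15, and *HERPUD1*, an endoplasmic reticulum stress gene 248 kb away, rose by 1.75 ± 0.056 and 1.99 ± 0.060. *CES1*, a carboxylesterase gene at 775 kb, rose by 3.20 ± 0.42 in 451Lu-R. *GNAO1*, which encodes a G protein subunit at 251 kb, rose by 0.47 ± 0.055 in 451Lu-R and 1.20 ± 0.060 in 1205Lu-R. *PSME3IP1* fell by 0.93 in 451Lu-R and 0.62 in 1205Lu-R. *NUDT21*, a polyadenylation factor gene, fell by 0.92 in 451Lu-R and 0.93 in 1205Lu-R.

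**Figure D4:**
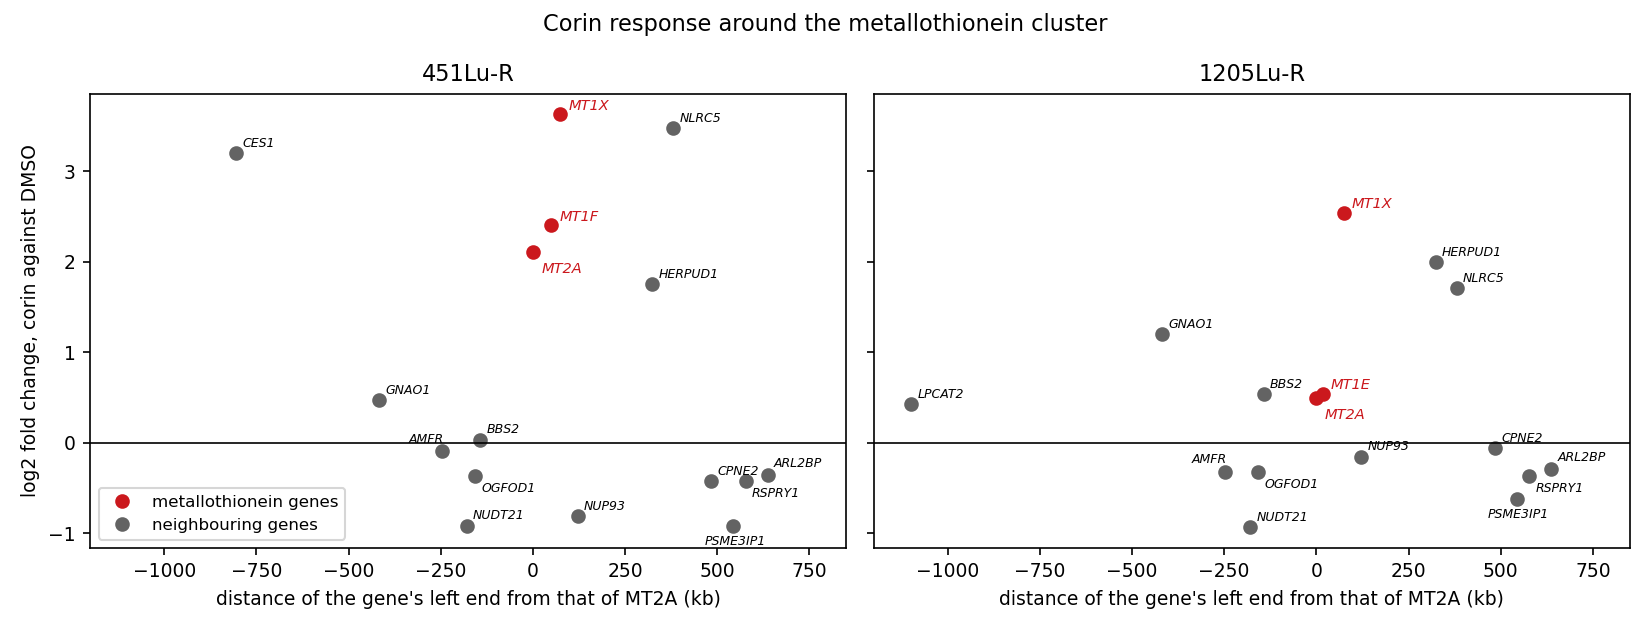
Log2 fold change, corin against DMSO, of tested metallothionein genes (red) and neighbouring genes (grey) in each line, by the distance in kb of each gene's left end from that of *MT2A*. *BBS2* and *NUP93*, the nearest of the listed neighbours on each side, lie below the metallothionein genes in 451Lu-R, and in 1205Lu-R *BBS2* lies at the height of *MT2A* and *MT1E*.

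Genes whose level was among the most like the summed metallothionein level over the 8 libraries, among 14426 genes ranked by Pearson's r of log2 CPM, were *SERPINE2* (r = 0.999), a serine protease inhibitor gene, the carboxypeptidase gene *CPE* (0.999), *GFPT2* (0.999) of hexosamine synthesis and the interleukin receptor gene *IL18R1* (0.999). *SERPINE2* gave 620 and 625 CPM in 451Lu-R DMSO, 1171 and 1186 in 451Lu-R corin, 1644 and 1628 in 1205Lu-R DMSO, and 1967 and 1974 in 1205Lu-R corin. Within the family, *MT2A*, which makes up most of the sum and so must follow it, had r = 0.998 with it, *MT1E* 0.833, *MT1X* 0.731 and *MT1F* -0.485. These coefficients describe 8 points that fall into 4 groups and share 2 cell lines, so they mainly repeat the order of the groups.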

How the data were processed

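Polyadenylated RNA of 8 libraries (2 per group) was sequenced. Per the study's methods and the labels, the authors used Trimmomatic for trimming and Salmon for quantification on GENCODE release 32, and added transcripts up to genes. The deposited values are estimated counts, which need not be whole. Program versions are not given in the sources used here. The tables for PLX4032 samples hold the authors' fold changes and adjusted p-values and were not used. Estimated counts were rounded and tested with edgeR 4.0.16 in R 4.3.3 (filterByExpr, TMM, quasi-likelihood F test, 2-sided, Benjamini-Hochberg over all genes tested, threshold 0.05). Each line was fitted on its own 4 libraries; line contrasts and the interaction used all 8. SE was the fold change divided by the square root of F. CPM used library totals. Alternatives were DESeq2 1.42.0, other scalings, filters and call rules, a replicate block and leaving out each library. Limits from 0 counts cover counting error only. The tests were tested on simulated data first.

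The members, lists and tests were chosen with earlier results of these data known. Named were all members, MTF1, other metallothionein genes with 10 or more counts in a library, up to 4 genes per list and comparison with the largest called change and a mean of at least 1 CPM, and the 5 genes most like the sum by Pearson's r on log2(CPM + 0.5), of which 1 is not reported here. *BBS2* and *NUP93* were named for their position. Positions come from GENCODE release 44, a later release than that of the counts. No batch is given in the labels. Same-numbered libraries did not deviate together.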

Additional observations from a re-analysis of the deposited data

Results flagged for a closer look

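The corin response of several genes differed between the lines by the interaction contrast of the 8-library edgeR fit, given here as the 1205Lu-R response minus the 451Lu-R response on the log2 scale. Among the metallothionein genes these were *MT2A* (-1.65, adjusted p = 4.62e-17) and *MT1X* (-1.12, adjusted p = 5.31e-09), both raised in both lines and less so in 1205Lu-R. *MTF1* (-0.41, adjusted p = 0.00145) and the exporter *SLC30A1* (-1.26, adjusted p = 9.09e-11) had the same sign. Among the other zinc transporter genes, the contrast was -0.94 for *SLC30A4*, -0.96 for *SLC39A14*, -0.39 for *SLC39A7*, -0.77 for *SLC39A13*, 1.36 for *SLC30A3*, 0.59 for *SLC39A10*, 1.18 for *SLC39A11* and 0.54 for *SLC39A8*. Among copper-handling genes it was -2.12 for *STEAP3*, -1.13 for *SLC31A2*, 1.11 for *ATP7A* and 0.72 for *CCS*. Among neighbours of the cluster it was -1.80 for *NLRC5*, 0.27 for *PSME3IP1* and 0.69 for *GNAO1*. A difference in either direction was called for 49.7% of all genes tested, so a difference by itself does not set these genes apart. With 2 libraries per group, no group was large enough to be searched for outlying samples.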

How the results depend on the processing

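All 234 recomputed values of single metallothionein genes kept their direction and their side of the threshold under the alternatives run. They include the line contrasts of *MT1E* and *MT1F*, whose direction was set by the low-count filter. The interactions of these genes, which could not be interpreted, are also among them. The stability of those values therefore carries no weight. *MT1X* ranged from 3.53 to 3.71 for the 451Lu-R response and from 2.49 to 2.62 for that of 1205Lu-R, and *MT2A* from 2.01 to 2.14 and from 0.45 to 0.57, with every adjusted p at or below 7.5e-19 for *MT1X* and 5.83e-16 for *MT2A*. Scaling by library totals alone moved the median interaction of all genes from -0.01 to 0.20. Under it the interaction of *MT2A* and *MT1X* was still negative, with ranges over all alternatives of -1.70 to -1.44 and -1.23 to -0.91. Under the stricter rule (adjusted p under 0.001, 4-fold or more), 1 metallothionein gene, *MT1X*, was higher with corin in 1205Lu-R, beside 11.3% of all genes tested. By this rule 0 had a smaller response in 1205Lu-R, where 2 were called at an adjusted p under 0.05. Under corin, only *MT1E* was higher in 1205Lu-R than in 451Lu-R by this rule, and its direction was set by the low-count filter. The summed per-kilobase level was 301, 1428, 2678 and 4308 for 451Lu-R DMSO and corin and 1205Lu-R DMSO and corin, in that order. It became 126, 557, 1195 and 1855 with the union of exons as length, and 293, 1469, 2793 and 4126 with TMM effective library sizes. Of 1522 values of other genes, 1461 kept their call, 51 lost it, 9 gained it and 1 reversed (the interaction of *SLC39A1*, 0.15 by library totals alone, adjusted p = 0.0456).

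The replicate numbers did not pair the libraries: the correlation of deviations of same-numbered libraries was -0.03 for 451Lu-R and 0.01 for 1205Lu-R. With a replicate block, *MT1X* rose by 3.63 and 2.54, every call of a metallothionein gene was the same, and genes called over the whole table went from 11612 to 11500 and from 11396 to 11418. DESeq2 called 9650 and 9386. Reads shared among copies, 2 libraries per group and the 3 counts that a count of 0 allows limit these values. *MT1G* had at most 2.007 counts in a library.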
